A study of Scyliorhinus canicula with 3 samples.

Results

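In droplet-based single-nucleus RNA sequencing, most barcodes belong to droplets that received no nucleus and captured RNA floating in the suspension. This free RNA was compared with the RNA of nuclei in 3 libraries, each from the retina of 1 female juvenile small-spotted catshark (*Scyliorhinus canicula*) of 11.0, 10.5 and 11.1 cm in body length for libraries 1, 2 and 3. Nuclei were isolated from frozen tissue, and there was no treatment, mutant or second condition. Near-empty droplets were defined as barcodes with at least 200 detected genes and with no more unique molecular identifiers (UMIs, the molecules counted) than the median of such barcodes, which was 448, 341 and 548 UMIs in libraries 1, 2 and 3. They numbered 34948, 26773 and 32187, or 93908 of the 186793 barcodes with at least 200 genes. Nuclei were the 6053, 4425 and 10154 barcodes within the UMI, gene and mitochondrial limits of the study's methods, 20632 in all. The raw counts of each set were summed within each library, mitochondrial genes were left out, and the 3 sums of near-empty droplets were compared with the 3 sums of nuclei from the same libraries.

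A nucleus holds newly made transcripts with their introns and the RNAs that remain at the chromatin, whereas most finished messenger RNAs are exported and translated in the cytoplasm. When tissue is broken open to release nuclei, the contents of the cytoplasm are spilled into the suspension. Short messenger RNAs of ribosomal proteins and of the respiratory chain are known as abundant cytoplasmic RNAs, and very long neuronal genes are known to contribute many intronic reads to nuclear preparations. Photoreceptors are the most numerous cells of many vertebrate retinas, and rods transcribe the genes of the light-sensing cascade at a high level. The counts used here covered introns as well as exons.

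The near-empty sums held 10704334, 7625566 and 14307393 UMIs without mitochondrial genes, against 27908129, 16408802 and 32913462 UMIs in the nuclei. With mitochondrial genes counted, the median depth was 390, 305 and 481 UMIs per near-empty droplet, against 3512, 2249 and 2075 UMIs per nucleus. The nuclei were not corrected for the free RNA they also carried. Clusters that the paper removed as most likely poor nuclei or ambient RNA were not taken out of them. Mitochondrial genes took 20.7%, 6.37% and 5.28% of the UMIs of near-empty droplets, against 2.91%, 1.97% and 1.64% in nuclei. Library 1 stood apart, since 99.9% of its near-empty droplets had 10% or more mitochondrial UMIs, against 6.82% and 0.273% in libraries 2 and 3. Values without library 1 are therefore given beside the results that changed most without it. Pairs of libraries shared 222 to 333 barcodes among their near-empty droplets, 0.829% to 1.035% of the smaller set, and 1 to 16 barcodes among their nuclei. A droplet with few UMIs may hold a damaged nucleus or a fragment of a cell, and near-empty describes its count only.

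Of 19069 genes tested, 3317 (17.4%) were called higher and 2238 (11.7%) lower in near-empty droplets than in nuclei, where a call required a Benjamini-Hochberg adjusted p under 0.05 in edgeR's paired quasi-likelihood test and a log2 fold change of at least 1 in either direction. The direction was the same in all 3 libraries for 3271 of the genes called higher and 2228 of those called lower. Below, levels that did not overlap between the sets are stated as a description of the named genes only. The share of all genes tested without such overlap was not counted. When the pairing by library was left out, 2085 genes were called higher and 754 lower. Levels are given as CPM, the count scaled to a total common to all sums, and a positive log2 fold change (log2FC) means a higher level in near-empty droplets. The scaling used trimmed-mean (TMM) factors, under which the median log2FC of all genes was -0.10. With unscaled totals the median was -0.63, and 1527 genes were called higher and 6440 lower. Shares of UMIs, given in percent, were taken of unscaled totals. The sums are mixtures of all cell types, so a different mix of cells and a different amount of RNA per cell, or its place within the cell, cannot be told apart.

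Transcripts of the cytosolic ribosome were higher in near-empty droplets without exception. All 56 ribosomal protein genes tested were called, with a median log2FC of 2.29 and a range of 1.07 to 2.55. Together they took 7.78%, 8.84% and 5.18% of UMIs in near-empty droplets of libraries 1, 2 and 3, against 2.52%, 1.75% and 1.97% in nuclei (mean 7.27 ± 1.89% against 2.08 ± 0.396%, SD, n = 3 libraries). The lowest near-empty share was above the highest nuclear share. The gene *rpl37a* (chromosome 2, 288794646 to 288809795), encoding a protein of the large subunit, had 2482, 2938 and 2367 CPM in near-empty droplets, against 499.9, 374 and 524 CPM in nuclei (log2FC 2.49 ± 0.34 (SE), edgeR adjusted p = 2.9e-05). The small-subunit gene *rps14* had 2950, 3729 and 1841 CPM in near-empty droplets, against 686, 562 and 503 CPM in nuclei (log2FC 2.23 ± 0.35, edgeR adjusted p = 8.2e-05). The groups did not overlap for either gene. The 2 members nearest the threshold were *rps20* (log2FC 1.24) and *rpl7l1* (log2FC 1.07), both expressed at a far lower level than the others named. With unscaled totals 54 of the 56 were still called, without *rps20* and *rpl7l1*, and all 56 were called without library 1. With barcodes of 10 to 100 UMIs in place of near-empty droplets, 28 were called, with a median log2FC of 1.00 and all 56 above 0.

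Among 36 translation factors, 18 were called higher and none lower, with a median log2FC of 1.01. With unscaled totals 14 were called higher and 1 lower (median log2FC 0.48). The translationally controlled protein gene *tpt1* had 2840.0, 2954 and 1438 CPM in near-empty droplets, against 644, 395 and 404 CPM in nuclei (log2FC 2.29 ± 0.35, edgeR adjusted p = 6.6e-05). *naca*, whose product binds chains leaving the ribosome, had 1517, 1394 and 1324 CPM in near-empty droplets, against 360.3, 211 and 344 CPM in nuclei (log2FC 2.25). *eef1b2*, an exchange factor of elongation, had 560.0, 703 and 330.4 CPM in near-empty droplets, against 135, 106 and 104 CPM in nuclei (log2FC 2.15). All 3 genes were separated between the sets in every library. The 19 factors with a gene span under 50 kb had a median log2FC of 1.77, with 15 called higher, against 0.26 with 3 called among the 17 longer ones.

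**Figure D1:**
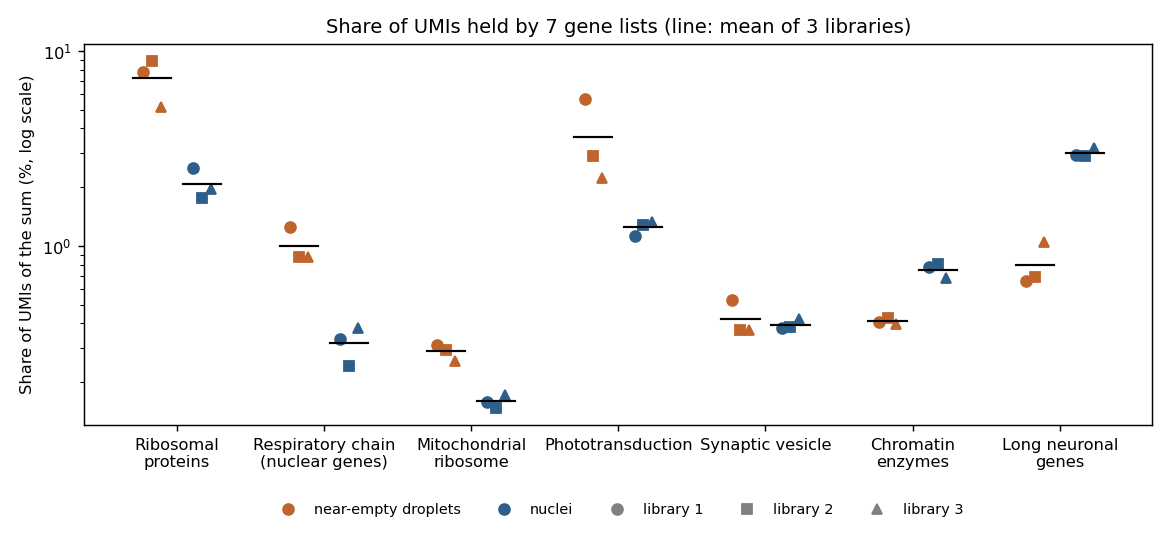
Share of all non-mitochondrial UMIs taken by each gene list (log axis, percent), in near-empty droplets (left of each pair) and nuclei (right), with 1 marker per library and a line at the mean. Ribosomal protein genes took 5.18% to 8.84% of UMIs in near-empty droplets and 1.75% to 2.52% in nuclei, while long neuronal genes took 0.658% to 1.05% in near-empty droplets and 2.87% to 3.18% in nuclei.

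Nuclear genes for the respiratory chain showed a difference of similar size. The list held subunits of complex I, of succinate dehydrogenase and of the ATP synthase, and 38 of its 40 members were called higher in near-empty droplets and none lower (median log2FC 2.26). Their summed share was 1.24%, 0.874% and 0.875% of UMIs in near-empty droplets, against 0.332%, 0.241% and 0.381% in nuclei, without overlap. *ndufb3*, encoding an accessory subunit of complex I, had 396, 349.7 and 447 CPM in near-empty droplets, against 58.3, 43.1 and 92.1 CPM in nuclei (log2FC 2.69 ± 0.25, edgeR adjusted p = 2.7e-06). *atp5mc1*, encoding the ring subunit through which protons pass in the ATP synthase, had 1075, 795 and 831 CPM in near-empty droplets, against 155, 110.1 and 209 CPM in nuclei (log2FC 2.55 ± 0.30, edgeR adjusted p = 7.4e-06). *sdha*, the flavoprotein of succinate dehydrogenase and 1 of the 2 members not called, spans 142.8 kb and had a log2FC of 0.90. Of 66 genes for proteins of the mitochondrial ribosome, 45 were called higher and none lower (median log2FC 1.44). The highest was *mrpl52*, with 179, 140.2 and 197 CPM in near-empty droplets, against 29.0, 22.8 and 50.3 CPM in nuclei (log2FC 2.40). These proteins are encoded in the nucleus, and their genes are not among the mitochondrial genes left out of the sums. Without library 1, 36 of the 40 and 45 of the 66 were called higher. With unscaled totals 34 of the 40 and 31 of the 66 were called higher. In library 1 the respiratory chain share was 0.512% in the 41 near-empty droplets under 10% mitochondrial. Whether the high mitochondrial share of that library bore on these lists was not tested. With barcodes of 10 to 100 UMIs in place of near-empty droplets, 17 of 40 and 1 of 65 were called higher.

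Genes of protein folding, turnover and secretion were also higher in near-empty droplets, although less uniformly. Of 89 chaperone, proteasome and ubiquitin genes, 50 were called higher and 1 lower (median log2FC 1.12). With unscaled totals 20 were called higher and 5 lower (median log2FC 0.58). The polyubiquitin gene *ubb* had 1523, 1326 and 1108 CPM in near-empty droplets, against 297, 282 and 399 CPM in nuclei (log2FC 2.02 ± 0.31, edgeR adjusted p = 7.3e-05). *hspe1*, a co-chaperone of the mitochondrial matrix, had a log2FC of 2.46, the proteasome subunit gene *psmb4* 1.98 and the chaperonin gene *cct5* 1.69, and all were called. The sets did not overlap for these 4 genes. Of 26 genes of the endoplasmic reticulum, 14 were called higher and none lower (median log2FC 1.06). With unscaled totals 9 were called higher and none lower (median log2FC 0.52). *sec61g*, a subunit of the channel through which new proteins enter the reticulum, had 1039, 679 and 824 CPM in near-empty droplets, against 213, 79.9 and 171 CPM in nuclei (log2FC 2.55 ± 0.29, edgeR adjusted p = 6.6e-06). The chaperone gene *hspa5* depended on library 1, with 290.1, 58.6 and 88.2 CPM in near-empty droplets, against 77.6, 33.6 and 57.7 CPM in nuclei. Its log2FC of 1.11 became 0.74 and was not called without that library.

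Of 9 glycolysis genes, 6 were called higher and none lower (median log2FC 1.17). *gapdhs*, a glyceraldehyde phosphate dehydrogenase gene, had 853, 534 and 254 CPM in near-empty droplets, against 121, 125 and 102 CPM in nuclei (log2FC 2.08 ± 0.30, edgeR adjusted p = 5.1e-05). Of 13 cytoskeleton genes, 9 were called higher and none lower (median log2FC 1.198), among them the actin gene *actb2* (log2FC 1.82) and the actin-severing cofilin gene *cfl2* (log2FC 2.08). Both lists had fewer calls without library 1, at 4 of 9 and 6 of 13. With unscaled totals 4 glycolysis genes were called higher and 1 lower, and 3 cytoskeleton genes higher and 1 lower.

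Phototransduction genes were called higher for 10 of 14 members and lower for none, with a median log2FC of 1.32. Rhodopsin, transducin and their partners took 5.66%, 2.90% and 2.22% of UMIs in near-empty droplets, against 1.13%, 1.28% and 1.32% in nuclei. Each library was higher in its near-empty droplets, and the difference was widest in library 1. *rho* (chromosome 11, 93868264 to 93910540), the rod visual pigment, was the protein-coding gene with the highest level on both sides, with 48068, 16364 and 14245 CPM in near-empty droplets, against 5475, 5828 and 5759 CPM in nuclei. Its nuclear levels lay close together while the near-empty level of library 1 was far above the other 2 libraries. The log2FC was 1.96 ± 0.52 (edgeR adjusted p = 0.0057), and without library 1 it was 1.43 and no longer called. *gngt1* (chromosome 5, 121323335 to 121325580), the gamma subunit of rod transducin, had 9398, 5079.9 and 4380.5 CPM in near-empty droplets, against 996, 553 and 1169 CPM in nuclei. It was among the 15 genes with the largest difference (log2FC 2.79 ± 0.42, edgeR adjusted p = 6.7e-05). *gnat1*, the alpha subunit of rod transducin, had 6062, 3723 and 2838 CPM in near-empty droplets, against 1073, 1024 and 1198 CPM in nuclei (log2FC 1.87 ± 0.38, edgeR adjusted p = 8.3e-04). The guanylate cyclase activator gene *guca1b* (log2FC 2.53) and *prph2-l*, related to a gene for the rim of outer segment discs (log2FC 1.99), were also called. *nxnl2*, a thioredoxin-like gene whose product supports photoreceptor survival in mammals, was outside the list and had 2862, 1984 and 1795 CPM in near-empty droplets, against 291, 244 and 469 CPM in nuclei (log2FC 2.76 ± 0.36, edgeR adjusted p = 2.0e-05). The sets did not overlap for any of the genes given with levels in this paragraph. Without library 1, 8 of the 14 members were called higher. With unscaled totals 6 were called higher (median log2FC 0.79). The number was 4 with near-empty droplets under 10% mitochondrial (median log2FC 0.85). It was 2 with barcodes of 10 to 100 UMIs (median log2FC 0.40, with 9 members above 0).

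**Figure D2:**
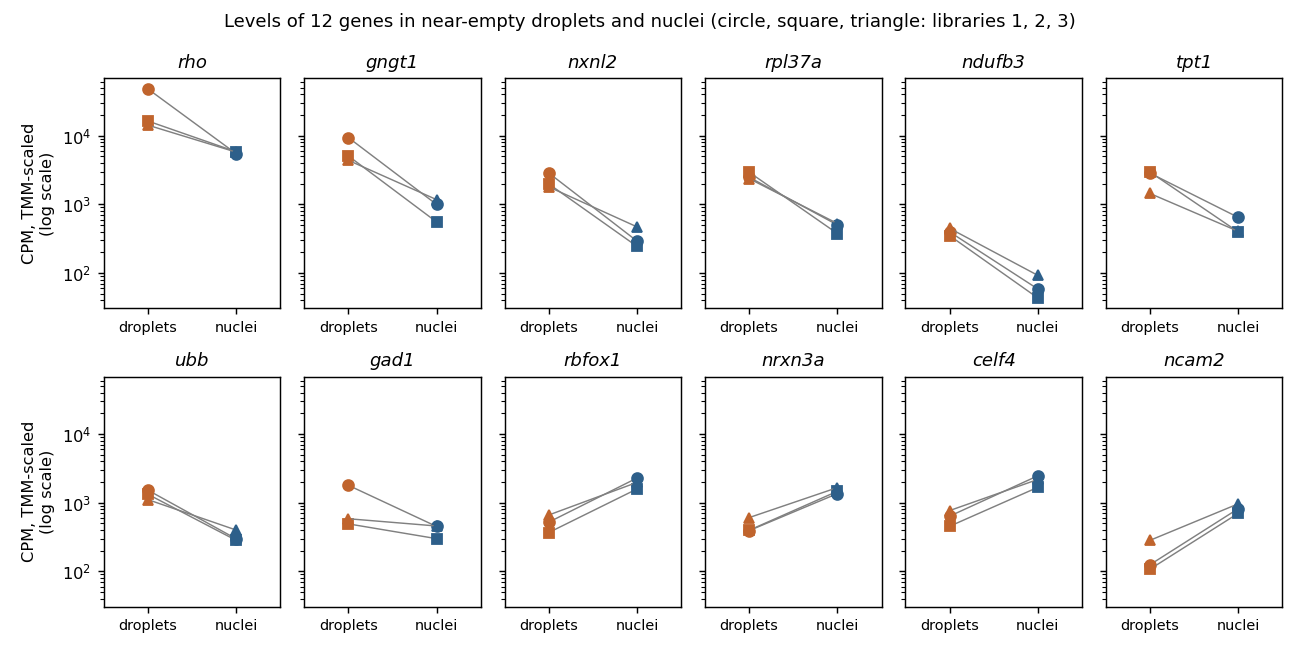
Level of named genes (log axis, CPM of scaled totals) in near-empty droplets (left in each panel) and nuclei (right), with 1 marker per library and a line joining the values of each library. The first genes, from *rho* (14245 to 48068 CPM against 5475 to 5828 CPM) to *ubb*, lie higher in near-empty droplets, *gad1* lies at 491 to 1792 CPM against 299 to 457 CPM, and *rbfox1*, *nrxn3a*, *celf4* and *ncam2* lie lower.

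The 2 transcripts with the highest mean level over the libraries lay in or beside annotated ribosomal RNA genes. LOC119956835, a long non-coding RNA gene on chromosome 24 (26469094 to 26487056), took 5.36%, 8.42% and 15.9% of UMIs in near-empty droplets, against 1.07%, 1.99% and 4.74% in nuclei. It lies 2546 bases from the ribosomal RNA gene LOC119956967. LOC119968089, a ribosomal RNA gene on chromosome 6 (203462036 to 203470353), took 0.796%, 3.79% and 5.74% in near-empty droplets, against 0.188%, 0.882% and 1.56% in nuclei. Both had higher levels in near-empty droplets of each library, with log2FC of 2.59 ± 0.59 (edgeR adjusted p = 0.0019) and 2.56 ± 0.50 (edgeR adjusted p = 6.0e-04), and neither was called without library 1, where the log2FC were 2.48 and 2.56. The coding gene LOC119967987 (chromosome 6, 203447947 to 203504596) overlaps LOC119968089, so its own reads are uncertain, and its log2FC was 2.97. These features and LOC119956967 together held 6.35%, 12.6% and 22.5% of UMIs in near-empty droplets, against 1.28%, 2.96% and 6.49% in nuclei. On both sides the share was lowest in library 1 and highest in library 3, and in library 1 *rho* was more abundant than LOC119968089 on both sides.

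The gene with the largest difference among those with at least 50 CPM was LOC119976369 (chromosome 1, 304723346 to 305093382), which is annotated as protein-coding with no name. It had 1009.5, 3806 and 8857 CPM in near-empty droplets, against 100.4, 406 and 1185 CPM in nuclei (log2FC 3.15 ± 0.37, edgeR adjusted p = 8.3e-06). LOC119954644 on chromosome 20 followed the same order of libraries, with 967, 4301 and 9170 CPM in near-empty droplets, against 120.5, 511 and 1430.2 CPM in nuclei (log2FC 2.92). For both genes the near-empty level of library 1 lay below the nuclear level of library 3, and the difference held within each library. LOC119956835 and LOC119968089, in or beside ribosomal RNA genes, rose from library 1 to 3 in the same order. Whether LOC119976369 and LOC119954644 also counted reads of ribosomal RNA could not be checked. Both calls were lost when the pairing by library was left out. The other leading genes were shorter. They included *cryabb*, a small heat shock protein gene of the alpha-crystallin family, with 266, 303 and 244 CPM in near-empty droplets, against 33.7, 35.6 and 51.0 CPM in nuclei (log2FC 2.78). They also included *ndufa1* of complex I (log2FC 2.74) and the unnamed genes LOC119950804 (2.90), LOC119975993 (2.80), LOC119965287 (2.80), LOC119963200 (2.74) and LOC119965262 (2.73), of which the longest spans 3.077 kb, as well as LOC119969981 (2.94) of 32.8 kb and the long non-coding LOC119977815 (2.69) of 11.0 kb. When both sets were thinned to the same number of UMIs, the 10 most abundant genes took 13.4%, 16.7% and 27.0% of UMIs in near-empty droplets, against 3.77%, 5.32% and 8.86% in nuclei. The number of genes that made up 50% of UMIs was 614, 579 and 415 in near-empty droplets, against 1246, 1228 and 1094 in nuclei.

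A list made up mainly of long genes of neuronal adhesion, synapse assembly and splicing control lay on the other side. It also held long genes outside these functions, such as *fhit* and *wwox*, and 2 members under 50 kb. Of its 63 members, 38 were called lower in near-empty droplets and 1 higher (median log2FC -1.21). The list took 0.658%, 0.695% and 1.05% of UMIs in near-empty droplets, against 2.92%, 2.87% and 3.18% in nuclei. The highest near-empty share was below the lowest nuclear share. *rbfox1* (chromosome 15, 34445946 to 36610471), a neuronal splicing regulator, had 519, 367 and 661 CPM in near-empty droplets, against 2285, 1584 and 1974 CPM in nuclei (log2FC -1.94 ± 0.32, edgeR adjusted p = 1.4e-04). The presynaptic adhesion gene *nrxn3a* (chromosome 2, 11412691 to 13369673) had 392, 396 and 606 CPM in near-empty droplets, against 1357, 1466 and 1659 CPM in nuclei (log2FC -1.71 ± 0.30, edgeR adjusted p = 2.5e-04). Its postsynaptic partner in the neuroligin family, *nlgn1*, had 143, 114 and 221 CPM in near-empty droplets, against 632, 541 and 669 CPM in nuclei (log2FC -1.99 ± 0.27, edgeR adjusted p = 2.2e-05). The sets were separated for all 3 genes, with library 3 highest among the near-empty sums. *tenm3*, a teneurin that matches synaptic partners and spans 4149 kb, had a log2FC of -1.88, the complement-related *csmd3b* -1.87 and the synaptic adhesion receptor gene *adgrb3* -1.96. The member called higher was the protocadherin gene *pcdh18a*, which spans 8.283 kb and had 32.9, 14.5 and 14.1 CPM in near-empty droplets, against 9.81, 6.13 and 7.75 CPM in nuclei (log2FC 1.29). With unscaled totals 53 of the 63 were called lower, and without library 1 the number was 36.

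Outside that list the largest decreases among genes with at least 50 CPM in nuclei included many long genes. *ncam2* (chromosome 7, 11568318 to 12945196), a neural cell adhesion gene, had 125, 107 and 283 CPM in near-empty droplets, against 819, 701 and 963 CPM in nuclei (log2FC -2.40 ± 0.30, edgeR adjusted p = 1.2e-05). It was followed by the RNA-binding protein gene *celf6* (log2FC -2.31), the glycosyltransferase gene *galntl6* (-2.29), the sodium-calcium exchanger gene *slc8a3* (-2.21), the receptor-anchoring gene *grip2b* (-2.19), the potassium channel gene *kcnd3* (-2.11), *lingo2* (-2.03) and the acid-sensing channel gene *asic1b* (-2.02). The spans of these 8 genes ran from 373.7 to 1409 kb. Their levels did not overlap between the sets, but they were picked for the size of their decrease, so this is no further result. Among the unnamed genes, LOC119953915 had a log2FC of -2.48, LOC119966049 of -2.16, LOC119965251 of -2.13, LOC119979442 of -2.10, LOC119973074 of -2.04 and LOC119969061, which spans 1781 kb, of -2.03. The largest decrease among genes with at least 50 CPM in nuclei belonged to the long non-coding RNA gene LOC119967764 (chromosome 6, 191830893 to 191899312), with 1.55, 8.73 and 18.2 CPM in near-empty droplets, against 18.1, 69.2 and 91.7 CPM in nuclei (log2FC -2.83 ± 0.24, edgeR adjusted p = 2.7e-06). Its near-empty and nuclear levels overlapped across libraries at the edge, with 18.2 CPM in near-empty droplets of library 3 and 18.1 CPM in nuclei of library 1. Of the 10 genes with the highest nuclear level, *ank2b*, *celf4*, *cadm2b*, *rbfox1* and LOC119970160 were called lower. *celf4*, an RNA-binding regulator of neurons, averaged 618 ± 158 CPM in near-empty droplets and 2107 ± 400.0 CPM in nuclei (SD, n = 3). *cadm2b* varied more, with 376, 752 and 1559 CPM in near-empty droplets, against 1821, 2210 and 2214 CPM in nuclei (log2FC -1.45), and its log2FC without library 1 was -0.999, which is not a call.

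Gene span, the distance from annotated start to end with introns, ordered the differences over the whole annotation. Among 848 coding genes under 5 kb, 591 were called higher and 13 lower, with a median log2FC of 1.49. The medians were 1.05 for 2270 genes of 5 to 20 kb, 0.33 for 4124 genes of 20 to 50 kb, -0.08 for 3875 genes of 50 to 100 kb, -0.37 for 3119 genes of 100 to 200 kb and -0.79 for 2758 genes over 200 kb. In the longest class 13 were called higher and 872 lower. The order of the 6 medians was the same within each library, from 1.55, 1.57 and 1.19 under 5 kb to -1.04, -0.83 and -0.52 over 200 kb. Genes over 200 kb took 15.6%, 18.9% and 23.0% of UMIs in near-empty droplets, against 44.1%, 46.3% and 44.5% in nuclei. Genes under 5 kb took 8.45%, 5.97% and 4.51% in near-empty droplets, against 3.05%, 1.66% and 2.08% in nuclei. As a description across 16994 genes, which share the same 6 sums and are not independent replicates, Spearman's rho between span and log2FC was -0.62. It was -0.53, -0.76 and -0.86 in genes of low, middle and high expression, split into 3 classes of equal size. With unscaled totals the medians for the shortest and longest classes were 0.95 and -1.32.

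**Figure D3:**
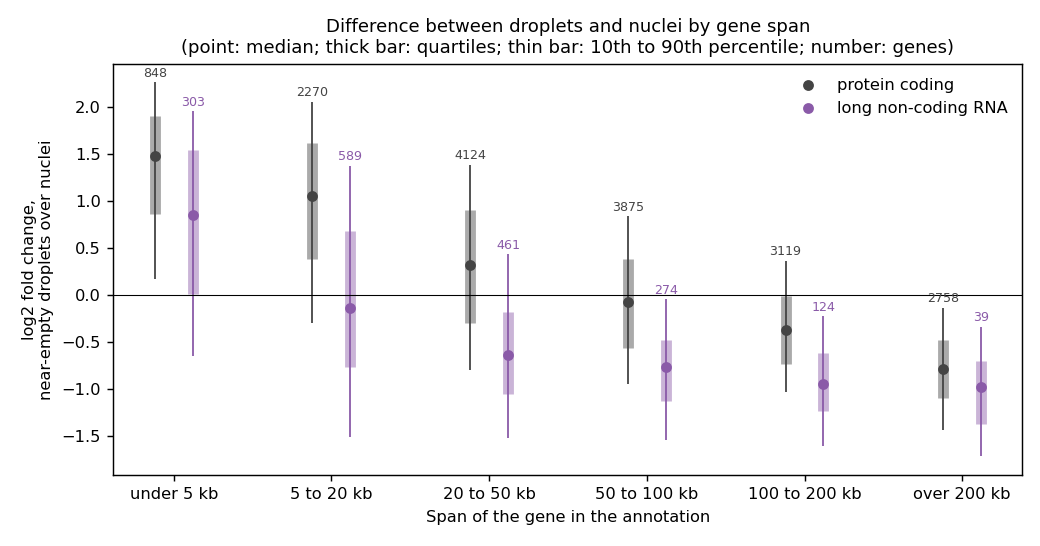
Log2FC (near-empty droplets over nuclei) by gene span class in kb for coding genes and long non-coding RNA genes, with the median, the quartiles as a box and the 10th to 90th percentiles as a line. Coding medians fall from 1.49 under 5 kb to -0.79 over 200 kb, and long non-coding medians from 0.85 to -0.97.

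Long non-coding RNA genes had lower medians than coding genes of like span. Of 1790 tested, 255 were called higher and 397 lower, with a median log2FC of -0.43. Their medians were 0.85 under 5 kb (303 genes), -0.14 for 5 to 20 kb (589 genes), -0.64 for 20 to 50 kb (461 genes) and -0.97 over 200 kb (39 genes, of which 18 were called lower and none higher). In each of these classes the median lay below that of coding genes, a difference that was not tested.

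Some genes went against their span class. The 13 coding genes over 200 kb that were called higher included *gnai2a*, an inhibitory G protein alpha subunit gene, with 583, 398 and 322 CPM in near-empty droplets, against 151, 114 and 128 CPM in nuclei (log2FC 1.70 ± 0.25, edgeR adjusted p = 4.5e-05). They also included the neuropeptide Y receptor gene *npy1r* (log2FC 1.64) and the neuronal gene *ndrg4* (log2FC 1.29), and all 13 were higher in each library. LOC119976369 was among them, and the origin of its reads is uncertain, as stated above. The 13 coding genes under 5 kb that were called lower were expressed at a low level, 10 of them under 5 CPM in nuclei on average, and 11 had no name. One of the named genes was *gpr171*, a G protein-coupled receptor gene, with 1.55, 1.33 and 2.65 CPM in near-empty droplets, against 4.21, 13.7 and 13.4 CPM in nuclei (log2FC -2.37). These exceptions were picked out after their values were seen.

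Some lists held genes for proteins that work in the nucleus. Of 7 genes for histones and small chromatin proteins, 5 were called higher and none lower (median log2FC 1.94). The numbers were 4 and 1 with unscaled totals. *ptmaa*, encoding prothymosin alpha, had 2157, 1239 and 1475 CPM in near-empty droplets, against 553, 265 and 445 CPM in nuclei (log2FC 1.97 ± 0.31, edgeR adjusted p = 8.2e-05). The nucleosome-binding gene *hmgn7* had 1853, 1234 and 1314 CPM in near-empty droplets, against 426, 215 and 405 CPM in nuclei (log2FC 2.11). Both were separated between the sets. Of 35 chromatin-modifying and remodelling enzymes, whose genes have a median span of 191.1 kb, 1 was called higher and 1 lower (median log2FC -0.31). These were the methyltransferase gene *setd6*, which spans 31.5 kb (log2FC 1.13), and the histone demethylase gene *kdm6a*, which spans 334.9 kb (log2FC -1.002), and neither was called without library 1, nor *kdm6a* with DESeq2. The enzymes took 0.410 ± 0.016% of UMIs in near-empty droplets and 0.755 ± 0.064% in nuclei (SD, n = 3). Of 16 genes listed mainly as splicing factors and kinases, 3 (18.8%, close to the 17.4% of all genes) were called higher and none lower (median log2FC 0.29, and -0.25 with unscaled totals). The list also held *oga*, which is neither. The RNA helicase gene *ddx5* had 386, 291 and 328 CPM in near-empty droplets, against 136, 92.7 and 181 CPM in nuclei (log2FC 1.34).

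**Figure D4:**
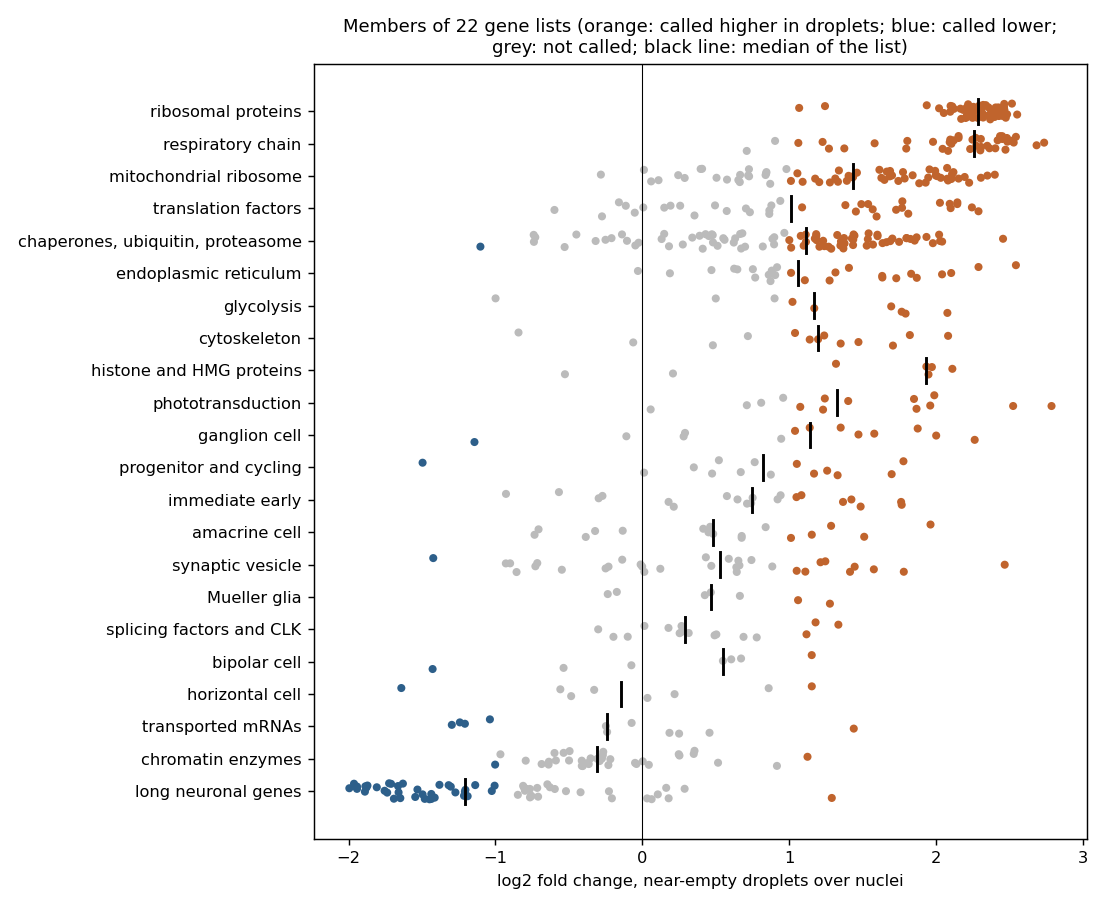
Log2FC (near-empty droplets over nuclei) of every tested member of each gene list shown, with 1 point per gene and a line at the list median. Points are orange where the gene was called higher, blue where it was called lower and grey where it was not called. Ribosomal protein genes lie between 1.07 and 2.55, long neuronal genes reach -1.99, and marker lists of retinal cell classes spread over both sides of 0.

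Immediate early genes, which respond within minutes to stress or activity, were called higher for 7 of 20 members and lower for none (median log2FC 0.75, and 0.92 without library 1). The numbers were 2 and 2 with unscaled totals (median log2FC 0.21). The phosphatase gene *dusp1* had 112, 113 and 47.1 CPM in near-empty droplets, against 33.96, 25.4 and 17.7 CPM in nuclei (log2FC 1.76 ± 0.20, edgeR adjusted p = 5.5e-06). The transcription factor gene *jun* had 71.3, 23.5 and 22.95 CPM in near-empty droplets, against 24.4, 6.56 and 10.7 CPM in nuclei (log2FC 1.49). Levels of *dusp1* did not overlap, whereas the near-empty *jun* levels of libraries 2 and 3 lay within the range of the nuclei.

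Synaptic genes were split. Of 32 synaptic vesicle and proton pump genes, 9 were called higher and 1 lower (median log2FC 0.53, and -0.01 with unscaled totals). Without library 1, 5 were called higher and 1 lower, and with near-empty droplets under 10% mitochondrial 3 and 1. The numbers were 3 and 7 with unscaled totals. The 8 members under 50 kb had a median log2FC of 1.43 with 7 called higher, against 0.07 with 2 called higher and 1 lower among the 24 longer ones. The proton pump gene *atp6v0cb* had 1290.1, 958 and 1076 CPM in near-empty droplets, against 262, 309.8 and 402 CPM in nuclei (log2FC 1.78 ± 0.30, edgeR adjusted p = 1.7e-04). A second pump subunit gene, *atp6v1g1*, had 315, 114 and 100.5 CPM in near-empty droplets, against 58.4, 15.4 and 23.3 CPM in nuclei (log2FC 2.47). The synaptotagmin family gene *syt16* was called lower (log2FC -1.42) and spans 231.7 kb. Of 11 genes listed for messenger RNAs known in mammals to be carried into cell processes, 1 was called higher and 4 lower (median log2FC -0.24). Without library 1 the numbers were 1 and 2 (median log2FC -0.06). The list was mainly neuronal but also held *mbp*, a marker of oligodendrocytes. The neurotrophin gene *bdnf* had 19.97, 13.3 and 19.1 CPM in near-empty droplets, against 4.95, 5.55 and 9.14 CPM in nuclei (log2FC 1.44). The potassium channel gene *kcnma1a* had 198, 308 and 429 CPM in near-empty droplets, against 701, 755 and 737 CPM in nuclei (log2FC -1.30), and the scaffold gene *shank2b* had a log2FC of -1.24. Neither gene overlapped between the sets.

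Markers of the retinal cell classes differed from class to class, and within most classes by gene span. Markers under 50 kb had a median log2FC of 1.47 (ganglion), 1.15 (amacrine), 1.11 (progenitor), 0.86 (horizontal), 0.67 (bipolar) and 0.45 (Müller glia). The longer ones had 0.28, 0.16, 0.18, -0.48 and -0.30, and the 1 longer Müller glia marker had 1.28. The part of gene span in the differences between classes was not tested. Over all genes tested 17.4% were called higher and 11.7% lower. The summed share of UMIs was higher in near-empty droplets of each library for ganglion and progenitor markers. It was lower there in each library for bipolar and horizontal markers, whose median log2FC with TMM factors was 0.55 and -0.15. Amacrine markers took 0.474%, 0.229% and 0.247% in near-empty droplets, against 0.309%, 0.277% and 0.328% in nuclei, so only library 1 was higher in share. Their median log2 ratio with TMM factors was 1.08, 0.38 and 0.15 in libraries 1, 2 and 3. Müller glia markers were lower in near-empty droplets on average, but higher in library 1 (0.0276% against 0.0180%). Of 13 ganglion cell markers, 8 were called higher and 1 lower (median log2FC 1.14), and the median was 2.18 in library 1 against 0.80 and 0.50 in libraries 2 and 3. The synuclein gene *sncga* had 305, 193 and 230.1 CPM in near-empty droplets, against 52.6, 36.2 and 64.0 CPM in nuclei (log2FC 2.26 ± 0.23, edgeR adjusted p = 2.9e-06). The ubiquitin hydrolase gene *uchl1* had a log2FC of 1.88, and both genes were called without library 1, where 5 of the 13 markers were called. With unscaled totals 4 ganglion cell markers were called higher and 1 lower. Of 17 amacrine cell markers, 5 were called higher and none lower (median log2FC 0.48, and -0.06 with unscaled totals). Without library 1, 3 were called (median log2FC 0.29), and without the pairing by library 1. *gad1*, the enzyme that makes GABA, had 1792, 491 and 583 CPM in near-empty droplets, against 449.8, 299 and 457 CPM in nuclei (log2FC 1.01 ± 0.34, edgeR adjusted p = 0.021). Its log2FC was 0.57 without library 1 and was not called, and the same held for the opioid peptide precursor gene *penkb* (log2FC 1.29, and 0.60 without library 1). The neuropeptide gene *nts* had 47.3, 22.1 and 22.4 CPM in near-empty droplets, against 10.9, 7.04 and 5.21 CPM in nuclei (log2FC 1.96). Bipolar and horizontal cell markers had 1 gene called higher and 1 lower in each list of 7 and 8. These were 14.3% and 12.5% of the lists in either direction, near the shares over all genes. Among bipolar markers the transcription factor gene *isl1* was higher (log2FC 1.15) and *lhx4*, another, was lower (log2FC -1.43). Among horizontal markers the transcription factor gene *tfap2a* was higher, with 311, 191 and 129.7 CPM in near-empty droplets, against 125, 70.6 and 79.0 CPM in nuclei (log2FC 1.15), and *megf11* was lower (log2FC -1.64). Of 7 Müller glia markers, *sox2* (log2FC 1.06) and the filament gene *gfap* (log2FC 1.28) were called higher and none lower, and 1 of these calls was kept without library 1. Of 14 progenitor markers, 6 were called higher and 1 lower (median log2FC 0.82), against 2 and 1 with unscaled totals. Among them the replication clamp gene *pcna* had 98.4, 59.2 and 49.4 CPM in near-empty droplets, against 25.8, 15.2 and 21.4 CPM in nuclei (log2FC 1.70), and the protease gene *prss56* had a log2FC of -1.496.

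Epithelial and lens markers, which belong to tissues next to the retina, differed between libraries as well as between sets. Epithelial markers took 0.0923%, 0.00199% and 0.00129% of UMIs in near-empty droplets, against 0.0893%, 0.00298% and 0.00184% in nuclei, so that library 1 was highest on both sides. Of 7 tested, 1 (14.3%, near the 17.4% of all genes) was called higher and none lower. It was *epcam*, an adhesion gene of epithelial cells, with 665, 2.07 and 1.03 CPM in near-empty droplets, against 258, 0.675 and 0.737 CPM in nuclei (log2FC 1.21). No member was called without library 1. Lens markers were highest in library 2, with 0.0234%, 0.178% and 0.0230% of UMIs in near-empty droplets, against 0.00462%, 0.0372% and 0.00778% in nuclei. The list included the small heat shock protein gene *cryabb*, whose levels, given above, were similar in all libraries. In libraries 1 and 3 *cryabb* made up most of the lens share on both sides. Of 7 lens genes, 6 were called higher and 1 lower (median log2FC 1.88). Without library 2, 3 were called higher and 1 lower (median log2FC 1.18), and without the pairing by library 1 was called higher. The crystallin gene *cryba1a* had 23.4, 823 and 23.4 CPM in near-empty droplets, against 3.15, 111 and 6.83 CPM in nuclei (log2FC 2.52 ± 0.27, edgeR adjusted p = 4.1e-06), and *crybb1* had 3.80, 523 and 6.25 CPM in near-empty droplets, against 0.717, 80.9 and 1.63 CPM in nuclei (log2FC 2.39). Levels of both genes overlapped across libraries but were higher in near-empty droplets within each library, and neither was called when the pairing by library was left out. *cryaa*, at 0.238, 1.18 and 0.771 CPM in near-empty droplets against 1.12, 2.61 and 2.11 CPM in nuclei, was called lower (log2FC -1.46). Pigment epithelium markers took 0.00378 ± 0.000964% of UMIs in near-empty droplets and 0.0045 ± 0.00163% in nuclei, and none of 6 was called. Among 11 vessel and stroma genes 2 (18.2%) were called higher and 1 (9.09%) lower, the endothelial receptor gene *flt1* (log2FC -1.17). Both shares were near the 17.4% and 11.7% over all genes. Among 3 immune genes none was called higher and 1 lower. The part of these cells in the results for the retinal lists was not tested.

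**Figure D5:**
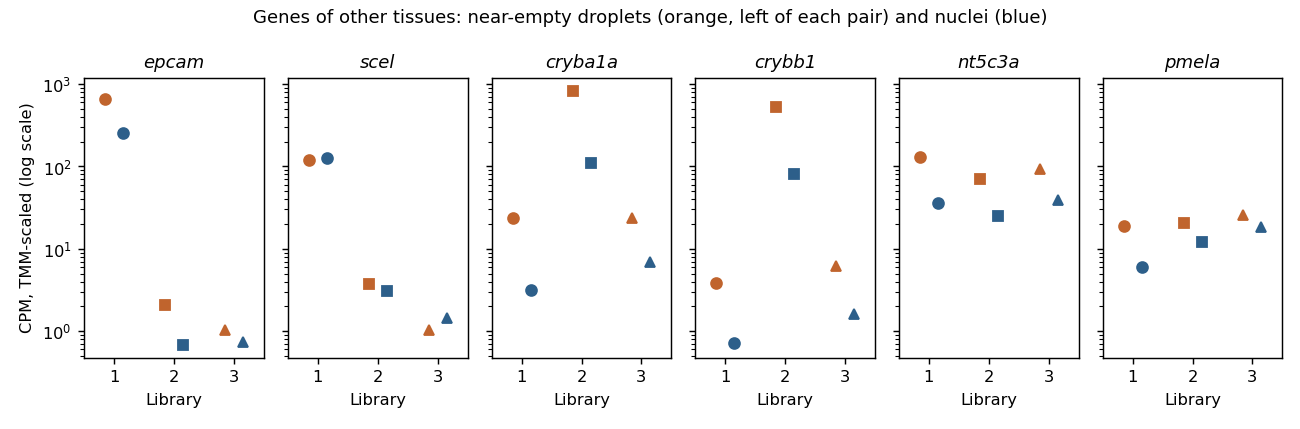
Level of markers of neighbouring tissues (log axis, CPM of scaled totals) by library, near-empty droplets left of nuclei. *epcam* stands out in library 1 on both sides (665 CPM against 258 CPM), and *cryba1a* and *crybb1* in library 2 (823 CPM against 111 CPM and 523 CPM against 80.9 CPM).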

How the data were processed

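The libraries were made with a 10x Genomics droplet kit. The authors mapped the reads with STARsolo (STAR 2.7.10a) to genome assembly sScyCan1.1, whose annotation of mitochondrial genes they had edited, and counted UMIs of uniquely mapped reads over exons and introns. The deposited counts are raw UMI counts per gene and barcode, unfiltered, of 29017 features. For the sums used here no doublet caller was run and no free RNA was subtracted. The paper itself applied a doublet finder and took out clusters that it judged most likely to be poor nuclei or ambient RNA. Neither step was repeated, so such barcodes within the limits stayed among the nuclei here.

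Barcodes were summed per library and set after 37 mitochondrial features were removed. Nuclei had under 10% mitochondrial UMIs, with 1000 to 20000, 500 to 24000 and 750 to 20000 UMIs and 500 to 5500, 500 to 6500 and 300 to 7000 genes in libraries 1, 2 and 3. Counts were tested in edgeR 4.0.16 (R 4.3.3) with filterByExpr, TMM factors, library as a block and the quasi-likelihood test, with p-values adjusted over 19069 genes. The replicate number marks the animal, and deviations of the 2 sums of a library correlated at 0.828, 0.76 and 0.718, against -0.668 to 0.253 between libraries. The p-values rest on how far the difference within a library varied over 3 libraries, and each library is 1 animal. Differences in level between libraries were removed by the block. The variance of each gene was moderated with that of other genes, with a median of 13.8 prior degrees of freedom. Count precision covers counting error only. The code was tested on simulated data. Alternatives included DESeq2 1.42.0. The text names list members, those with the highest levels first, the 15 called genes with the largest log2FC in each direction that went the same way in 3 libraries at 50 CPM or more, and the 10 highest genes on each side. The members and lists were chosen with earlier results of these data known. Gene spans, chromosomes and biotypes come from RefSeq for the same assembly, where all 28980 features matched, 16725 with a number for a name. Bins by exon number were planned but not analysed here. Some named genes are paralogs whose shared reads could not be placed by unique mapping.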

Additional observations from a re-analysis of the deposited data

How the results depend on the processing

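Counts of calls changed by over 1.5 times in at least 1 direction under 4 alternatives. With unscaled totals 1527 genes were called higher and 6440 lower, without the replicate block 2085 and 754, with barcodes of 10 to 100 UMIs in place of near-empty droplets 218 and 629, and at an adjusted p under 0.05 alone (edgeR) 5120 and 4568. Leaving out 1 library gave 3155 to 3897 higher and 1775 to 2594 lower. The median log2FC of coding genes under 5 kb was 0.95 with unscaled totals, 1.04 with no filter on low counts and 0.46 with barcodes of 10 to 100 UMIs, and that of genes over 200 kb was -1.32 with unscaled totals. Respiratory chain genes took 0.753% of UMIs in near-empty droplets under 10% mitochondrial and 0.746% in barcodes of 10 to 100 UMIs. Long neuronal genes took 1.41% and 1.75% in the same classes, and 3.38% in nuclei over 3000 UMIs, where phototransduction genes took 0.967%. In library 1 the droplets under 10% mitochondrial were 41. Among the short lists, leaving out the replicate block also took cytoskeleton calls to 5, histone calls to 3, immediate early calls to 4, ganglion calls to 4, progenitor calls to 3, and transported messenger RNA calls to 1 higher and 2 lower. Of 102 genes named, 25 lost their call without the replicate block, 16 with unscaled totals, 14 without library 1, 3 without library 2, 0 without library 3, 22 with near-empty droplets under 10% mitochondrial and 1 with DESeq2, and none of these turned direction. With barcodes of 10 to 100 UMIs 55 calls were lost and 10 genes turned direction, *hspa5* (-0.37), *gad1* (-0.29), *ddx5* (-0.13), *isl1* (-0.49), *tfap2a* (-0.12), *sox2* (-0.70), *pcna* (-0.77), LOC119973074 (0.053), LOC119967764 (0.71) and *gpr171* (0.66, all log2FC). Beyond the named genes, 1579 of the 5024 called genes tested with these barcodes turned direction, and 10 were called in the opposite direction. The cause was not tested. Barcodes between the near-empty droplets and the nuclei, and near-empty droplets under 10% mitochondrial of libraries 2 and 3 alone, were alternatives chosen after seeing the data, with 3065 and 3139 genes called higher and 1779 and 1771 lower.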

Other observations

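The share of ribosomal protein transcripts was also read over classes of barcodes by depth, as a description with no test. It averaged 5.44% of UMIs in barcodes with 10 to 100 UMIs, 7.27% in near-empty droplets, 6.46% in barcodes between these and the nuclei, 2.08% in nuclei and 1.75% in nuclei over 3000 UMIs (means of 3 libraries). Long neuronal genes averaged 1.75%, 0.801%, 0.871%, 2.99% and 3.38% in the same classes. By these means the lowest class lay between near-empty droplets and nuclei for both lists, although in library 3 its ribosomal protein share was 5.85%, above the 5.18% of near-empty droplets. It held only 61885, 53032 and 49827 UMIs without mitochondrial genes in libraries 1, 2 and 3.

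All 5 small nuclear RNA genes tested, whose products form the spliceosome or act beside it, were called higher in near-empty droplets (median log2FC 1.84). Their mean levels ran from 1.48 to 11.2 CPM in near-empty droplets and from 0.295 to 1.94 CPM in nuclei. The difference was smallest in library 1, where the median log2 ratio was 0.52, against 1.88 and 2.18 in libraries 2 and 3. With unscaled totals their summed share of UMIs in library 1 was lower in near-empty droplets (0.000785%) than in nuclei (0.000867%), and so was that of small nucleolar RNA genes (0.000822% against 0.000921%). Of 14 small nucleolar RNA genes, which guide modification of ribosomal RNA, 5 were called higher and none lower (median log2FC 0.91). Features that carry only a numbered identifier made up 10278 of those tested, and 1640 of them (16.0%) were called higher and 1409 (13.7%) lower (median log2FC -0.19). These shares were near the 17.4% and 11.7% of all genes.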
